A study of Mus musculus with 6 samples.

Results

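A set of 10 genes listed as Sertoli identity and secretory genes was followed across the cells of the adult mouse testis. The genes were Sox9, Wt1, Clu, Rhox5, Rhox8, Cst12, Ctsl, Aard, Defb36 and Defb45. They are 10 of the 25771 genes measured, taken as a list of names with earlier results of these data known, and each was read in every library and in each of the 17 fine cell classes of the deposited annotation. The testes came from adult C57BL6 mice of 2 genotypes, NONO deltaER (3 libraries, TD, TE and TF) and NONO (3 libraries, TA, TB and TC). NONO belongs to the paraspeckle proteins of the nucleus, and the labels do not say what the deltaER allele alters. The authors' cell table names the groups KI and WT, which were read as NONO deltaER and NONO. Were that reading wrong, every direction below would turn round. Since no label says that each library is its own animal, a p-value here sets a difference against the spread of libraries, part of which may be technical.

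Sertoli cells are the somatic cells of the seminiferous tubule. They enclose the germ cells from the spermatogonia at the wall to the spermatids at the lumen, form the barrier between them, and respond to androgen and follicle-stimulating hormone. SOX9 starts their formation in the fetal gonad, WT1 keeps their identity in the adult, and much of their protein output is secreted into the fluid around the germ cells.

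The files held 46495 cells, from 81042216 to 110018960 molecules per library counted by unique molecular identifier (UMI). Levels are given as CPM, the UMI of a gene per 1000000 UMI of the class in that library. The assay counts 3′ ends, so a gene's CPM does not depend on transcript length. The deposited Sertoli class held 1676 cells (3.605% of all cells) and 0.937% of all UMI, while the 12 germ cell classes together held 42595 cells. By library the Sertoli class had 336, 271 and 296 cells in NONO deltaER (TD, TE, TF) and 275, 148 and 350 cells in NONO (TA, TB, TC). Its median depth was 2396, 1891 and 1312 UMI per cell in NONO deltaER and 2605, 2952 and 1217 UMI in NONO. Cell barcodes shared by libraries numbered 650, carried by 1309 cells.

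The genes lie on 6 chromosomes, and 2 pairs are neighbours. Positions are those of the GENCODE M21 annotation on mm10, and each is the span of the whole gene. Of the 10, 4 were on chromosome 2: Wt1 (chr2:105126529-105173616, plus strand), Cst12 (chr2:148789361-148793546, plus), Defb45 (chr2:152593191-152599399, minus) and Defb36 (chr2:152604327-152612729, plus). Defb45 and Defb36 are head to head, with 4.928 kb between their starts and 0 annotated genes between them. Rhox5 (chrX:37804842-37808876, plus) and Rhox8 (chrX:37874778-37878944, minus) start 74.1 kb apart with 2 genes between them, Rhox6 and Rhox7a. Sox9 (chr11:112782224-112787760, plus), Ctsl (chr13:64359337-64370890, minus), Clu (chr14:65968483-65981547, plus) and Aard (chr15:52040107-52045722, plus) stand alone.

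Promoter sequences, from 250 bases before to 50 after the RefSeq start on GRCm38.p6, were available for 5 of the 10 genes. Of these, 3 are shown: the head-to-head pair Defb36 and Defb45, whose levels differed widely, and Cst12, the gene with the largest share of its UMI in the Sertoli class. Each reads 5′ to 3′ along the gene's own strand. Capitals mark the letters ACAAT, the core bound by SOX factors, on either strand.
Defb36, chr2:152604077-152604376, plus strand: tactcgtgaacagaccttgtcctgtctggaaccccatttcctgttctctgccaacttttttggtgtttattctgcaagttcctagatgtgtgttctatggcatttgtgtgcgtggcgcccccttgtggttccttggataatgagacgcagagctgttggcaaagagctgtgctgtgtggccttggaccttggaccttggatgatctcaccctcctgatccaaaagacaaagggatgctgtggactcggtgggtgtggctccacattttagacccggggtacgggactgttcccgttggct
Defb45, chr2:152596436-152596735, minus strand: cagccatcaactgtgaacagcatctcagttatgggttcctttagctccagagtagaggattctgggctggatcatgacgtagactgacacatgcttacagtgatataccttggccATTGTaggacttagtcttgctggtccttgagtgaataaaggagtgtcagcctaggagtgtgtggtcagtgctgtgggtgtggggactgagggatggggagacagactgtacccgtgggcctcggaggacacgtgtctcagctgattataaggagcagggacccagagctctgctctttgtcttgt
Cst12, chr2:148789115-148789414, plus strand: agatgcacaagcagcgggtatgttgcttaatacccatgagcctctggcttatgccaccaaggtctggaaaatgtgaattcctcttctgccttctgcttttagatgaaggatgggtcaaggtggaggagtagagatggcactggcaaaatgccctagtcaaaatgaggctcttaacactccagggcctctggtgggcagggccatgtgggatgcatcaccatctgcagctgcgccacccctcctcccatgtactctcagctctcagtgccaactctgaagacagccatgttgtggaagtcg
The Defb45 window held 1 SOX core, and the Defb36 and Cst12 windows held none. The RefSeq and GENCODE starts were the same for Defb36 and 4 bases apart for Cst12, but 2914 bases apart for Defb45, so the Defb45 window may not be the promoter used in these cells. Of the 5 windows searched, 3 held a SOX core, against 31.0% of all 32851 promoters of this length. Besides Defb45 these were Ctsl and Rhox5, whose RefSeq and GENCODE starts were 370 and 50234 bases apart. The GATA letters AGATAA and the WT1 letters GTGGGAG were found in 0 of the 5 windows searched, against 11.2% and 9.73% of all promoters. These matches are letters in a window and say nothing of binding.

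Of the 10 genes, 9 were higher in the Sertoli class than in any of the other 16 classes in all 6 libraries, and for each of these 9 the lowest Sertoli library lay above the highest library of any other class. Of 9659 genes with a mean of at least 10 CPM in the Sertoli class, 4.27% were highest there in every library. The classes are the authors' annotation of these same cells, so these levels are a description and carry no test. The other gene, Defb45, was highest there in 5 of 6 libraries and had 0 UMI in the Sertoli cells of TF.

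The 2 transcription factors of the set that define the lineage were at moderate levels. Sox9 had 215.2, 237.7 and 194.8 CPM in the NONO deltaER libraries and 256.9, 217.3 and 190.9 CPM in the NONO libraries, and the groups overlapped. Its next class was Leydig with a mean of 11.74 CPM, 18.6-fold below, and 88.5% of all Sox9 UMI lay in the Sertoli class. Wt1 had 451.5, 436.4 and 385.7 CPM in NONO deltaER and 350.5, 411.2 and 305.5 CPM in NONO, so that 1 library, TB, stood within the NONO deltaER range. For Wt1 the next class was Myoid, with 75.24, 54.03 and 69.48 CPM in NONO deltaER and 58.04, 48.81 and 0 CPM in NONO. That is 13.1% of the Sertoli mean, in a class of 21 to 129 cells per library.

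The X-linked homeobox genes Rhox5 and Rhox8, the first of them known to be induced by androgen in Sertoli cells, had their highest level in the class. It held 79.6% of Rhox5 UMI and 86.9% of Rhox8 UMI, and germ cells held 19.7% and 12.1%. Rhox5 had 100.4, 150.9 and 60.55 CPM in NONO deltaER and 94.58, 132.1 and 149.9 CPM in NONO. Rhox8 had 375.6, 500.5 and 254 CPM in NONO deltaER and 310.6, 456.4 and 553 CPM in NONO. For both genes TF was the lowest library, and the highest was a different library for each. The next class was Myoid for both, at a mean of 3.171 CPM for Rhox5 and 9.508 CPM for Rhox8, 36.2-fold and 42.9-fold below. Those Myoid means rested on 3 UMI for Rhox5 and 11 UMI for Rhox8.

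Clu, which encodes clusterin, a secreted chaperone glycoprotein of tubular fluid, was the 13th most abundant gene of the Sertoli class. It had 3512, 3625 and 2347 CPM in NONO deltaER and 2674, 3041 and 3051 CPM in NONO. Clu was also high in Leydig cells, with 1773, 1231 and 808.2 CPM in NONO deltaER and 965, 1250 and 855.9 CPM in NONO, so that the Sertoli mean was only 2.65-fold above. The Leydig class held Clu out of the Sertoli proportion: its Rhox8 averaged 4.365 CPM, 1.07% of the Sertoli mean. After Leydig cells came Myoid cells, with 116.3, 126.1 and 171 CPM in NONO deltaER and 167.7, 115.9 and 231.8 CPM in NONO.

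Ctsl, the lysosomal protease cathepsin L that rodent Sertoli cells also secrete, was the 21st most abundant gene of the class, which held 69.5% of its UMI. It had 1817, 2397 and 1768 CPM in NONO deltaER and 1717, 2088 and 1692 CPM in NONO. The class named Unknown had 353.2, 457.4 and 507.9 CPM in NONO deltaER and 559.8, 487.6 and 183 CPM in NONO, 4.50-fold below Sertoli cells in the mean. Macrophages, which use the same protease in their lysosomes, had 176.5, 107.2 and 349 CPM in NONO deltaER and 480.9, 338.8 and 869.6 CPM in NONO. Leydig cells had 383, 228.2 and 214.4 CPM in NONO deltaER and 347.5, 375.5 and 212 CPM in NONO. In Preleptotene SC, the only germ cell class above 200 CPM in the mean, Ctsl stood at 287, 252.5 and 199 CPM in NONO deltaER and 225.2, 284.8 and 260.7 CPM in NONO. The class named Differentiated SG had 191.3, 97.71 and 100.8 CPM in NONO deltaER and 105.4, 122 and 202.7 CPM in NONO.

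Cst12, a cystatin of the family that inhibits cysteine proteases such as cathepsins, had 155.3, 155.9 and 80.29 CPM in NONO deltaER and 169.7, 167.2 and 134.4 CPM in NONO. TF was lowest by a wide gap. Its next class, Macrophage, rested on 1 UMI, and 89.9% of all Cst12 UMI lay in the Sertoli class. Aard, a gene named for its alanine- and arginine-rich protein, had 719.1, 860.2 and 544.9 CPM in NONO deltaER and 796.5, 949.5 and 1013 CPM in NONO. The Leydig class followed for Aard with a mean of 67.77 CPM, 12.0-fold below.

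The 2 beta-defensins, members of a family of small cationic antimicrobial peptides, were the lowest of the set. Defb36 had 37.98, 26.41 and 23.69 CPM in NONO deltaER and 25.04, 20.06 and 32.53 CPM in NONO. Its head-to-head neighbour Defb45 had 2, 2 and 0 UMI in NONO deltaER and 1, 3 and 1 UMI in NONO, 9 UMI in all, which is a mean of 1.927 CPM. Despite its Sertoli peak, only 31.2% of Defb36 UMI lay in the Sertoli class and 68.4% in germ cells, where most of the UMI sequenced lay.

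**Figure D1:**
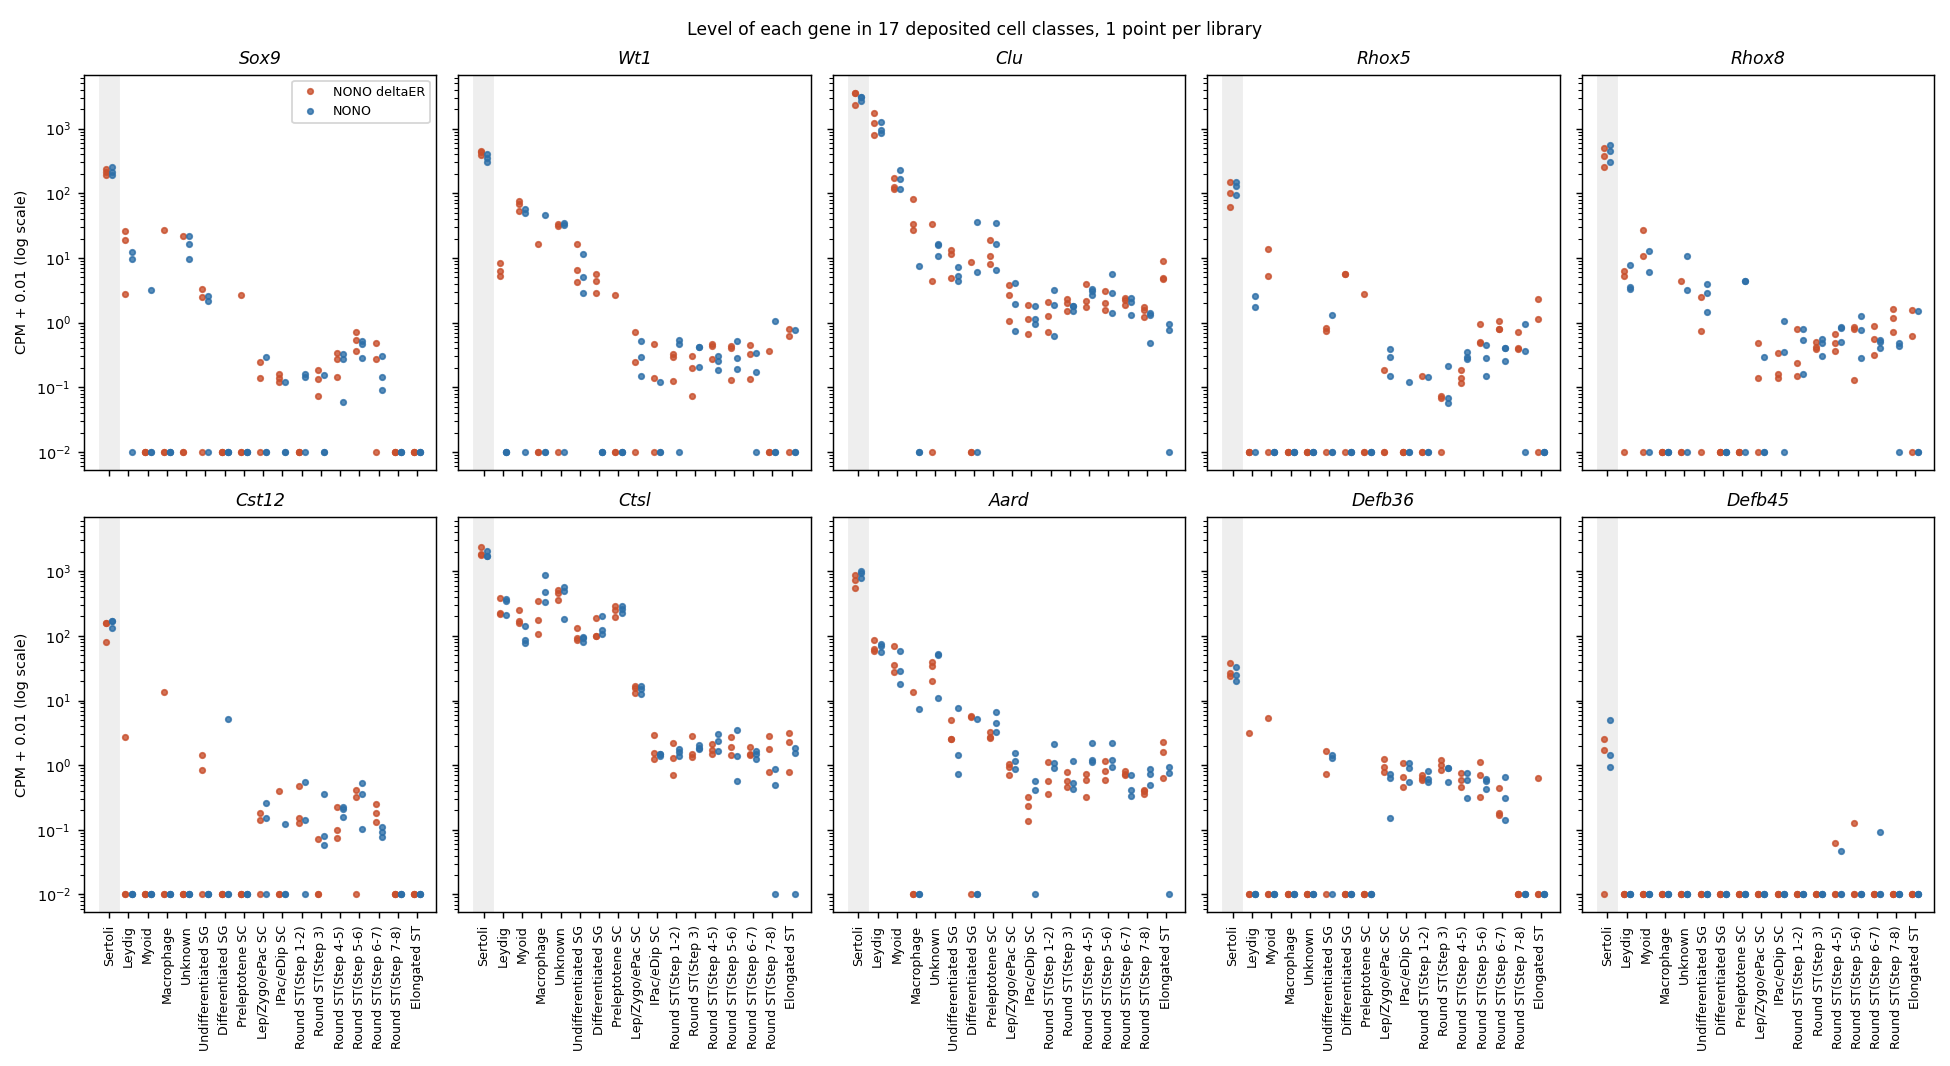
CPM of each of the 10 genes in the 17 classes (1 point per library, NONO deltaER left of NONO, logarithmic axis with 0.01 added so that 0 can be drawn). The Sertoli class (shaded) is the highest for 9 genes in all 6 libraries; Clu in Leydig cells and Ctsl in several somatic and early germ cell classes come nearest.

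At 1000 UMI per cell, to which every cell was thinned so that depth was equal, 69.6% of Sertoli-class cells had a Clu UMI and 62.8% a Ctsl UMI. Aard was found in 48.2%, Wt1 in 29.2%, Rhox8 in 27.2%, Sox9 in 16.8%, Cst12 in 13.98%, Rhox5 in 10.6%, Defb36 in 3.06% and Defb45 in 0.331%. In pooled germ cells the same shares were 0.373% for Clu and 1.26% for Ctsl, and between 0 and 0.115% for the other 8 genes. Thinning left out 467 Sertoli cells under 1000 UMI, 264 of NONO deltaER and 203 of NONO, and kept 1209. Without it the Sertoli shares were 77.0% for Clu, 74.9% for Ctsl, 66.5% for Aard, 44.9% for Wt1 and 30.0% for Sox9.

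Part of the cells in the class carried few of these genes. The 10 genes summed to more than 8 UMI per 1000 in 685 of the 1676 cells, but to at most 2 per 1000 in 462 cells, of which 83 had none at all. Those poor cells were 20.8%, 21.8% and 42.2% of the class in NONO deltaER (TD, TE, TF) and 35.3%, 25.7% and 20.9% in NONO (TA, TB, TC). TF and TA thus had the largest shares. The 7 measured markers of late spermatids (Prm1, Prm2, Tnp1 and others, packaging and tail proteins of the future sperm) gave 10.1% of the UMI in cells with no UMI of the 10 genes and 0.265% in cells with more than 16 per 1000. Summed over the class these markers stood at 36288, 50604 and 35394 CPM in NONO deltaER and 37790, 35222 and 52297 CPM in NONO. In pooled germ cells they stood at 40424, 33866 and 29042 CPM in NONO deltaER and 31178, 27188 and 33347 CPM in NONO. Other somatic classes carried them too. Leydig cells had 6493 to 9756 CPM in NONO deltaER and 13686 to 31700 CPM in NONO. Myoid cells had 11618.5 to 18530 CPM in NONO deltaER and 18298 to 22141 CPM in NONO. Markers of other somatic cells were low in the Sertoli class: Leydig markers summed to 21.4 to 36.9 CPM in NONO deltaER and 33.9 to 57.5 CPM in NONO, with 7 of 8 measured, against 11468 CPM or more in Leydig cells. Macrophage markers summed to 18.9 to 56.6 CPM in NONO deltaER and 12.7 to 21.7 CPM in NONO, with 8 of 8 measured. Peritubular myoid markers (7 of 7 measured, 1 of them at 0) were the highest of the 3 lists, with 59.92, 77.97 and 75.03 CPM in NONO deltaER and 51.93, 48.48 and 50.92 CPM in NONO, without overlap, against 4318 CPM or more in Myoid cells.

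Cells of the class in which late spermatid markers made up less than 1% of UMI numbered 883 of 1676 (52.7%). This limit was chosen after the data were seen. They were 64.0%, 63.5% and 35.8% of the class in NONO deltaER and 46.2%, 65.5% and 47.4% in NONO. The 10 genes summed to 10704 CPM in them and to 2835 CPM in the other 793 cells. Each gene was higher there than in the whole class, by 1.25-fold for Defb45 to 1.61-fold for Sox9, so the levels above are those of the class as deposited.

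**Figure D2:**
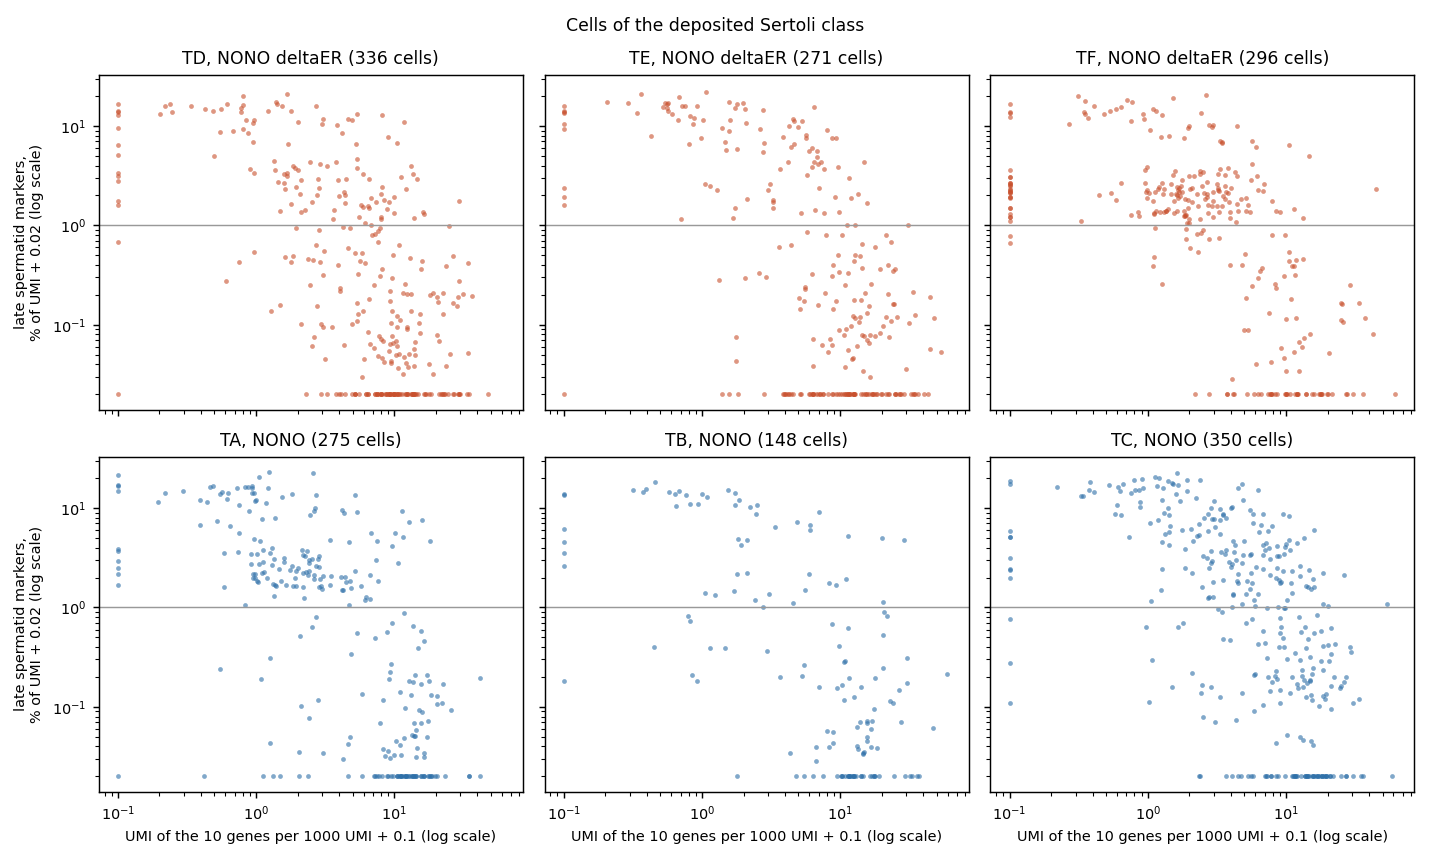
Every cell of the deposited Sertoli class by library, NONO deltaER above NONO: UMI of the 10 genes per 1000 (x, logarithmic, 0.1 added) against the percent of UMI from late spermatid markers (y, logarithmic, 0.02 added). The line marks 1%; 35.8% of TF cells lie under it and 63.5% to 64.0% of TD and TE cells.

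Within the class the genes varied together from cell to cell. Over 783 cells with at least 2000 UMI, 85 to 187 per library, the 36 pairs among the 9 genes other than Defb45 had a median Pearson r of 0.338 on log-scaled UMI, taken within each library and averaged over libraries. Clu and Ctsl were the closest pair (r = 0.799, 0.730 to 0.876 over the 6 libraries), and Rhox8 and Defb36 the most distant (r = 0.0327). Among the 412 such cells with little spermatid RNA the median was 0.221, Sox9 and Wt1 stood at 0.302 against 0.504 in all cells, and Rhox5 and Rhox8 at 0.394 against 0.350. The points share a library and the share of spermatid RNA, and these values are given as a description.

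The genotypes were compared over libraries within each class. In the Sertoli class 0 of the 9 genes tested passed an adjusted p of 0.05 in edgeR's quasi-likelihood test, which called 0 of 9026 genes there (0.0%). Unadjusted p-values were under 0.05 for 436 of those genes and for none of the 9 with all 6 libraries and no covariate, whose lowest was 0.1375. DESeq2 also called 0 genes, with 217 under 0.05 unadjusted. Of the 9 fold changes, 4 lay above 0 and 5 below, with a median of -0.02 on the log2 scale against 0.01 for all genes. Defb45 was too low to be tested.

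Neither identity factor passed the test. Sox9 averaged 215.9 ± 21.4 CPM in NONO deltaER and 221.7 ± 33.2 CPM in NONO (SD, n = 3 each). The log2 fold change was -0.02 ± 0.21 (SE), with an adjusted p of 0.997 in edgeR. Wt1 averaged 424.5 ± 34.5 CPM in NONO deltaER and 355.8 ± 53.1 CPM in NONO, with a log2 fold change of 0.28 ± 0.21 (SE, edgeR adjusted p = 0.960). In cells with little spermatid RNA, Wt1 had 599.4, 705.5 and 637.9 CPM in NONO deltaER and 526.5, 593.7 and 540.7 CPM in NONO, without overlap, the only 1 of the 10 genes of which this held. There, 14.7% of genes of at least 10 CPM had no overlap, and the edgeR adjusted p was 0.709. The peritubular myoid markers did not overlap in these cells either, with 81.7, 108.2 and 86.5 CPM in NONO deltaER and 61.1, 67.2 and 63.0 CPM in NONO. Myoid is the next class for Wt1, and the part of myoid RNA in its level was not tested. In the whole class, 0 of the 10 genes had groups without overlap, against 9.55% of genes.

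The secreted products did not pass the test either, and their fold changes had both signs. Clu averaged 3161 ± 708 CPM in NONO deltaER and 2922 ± 215 CPM in NONO (log2 fold change 0.14 ± 0.25). Ctsl averaged 1994 ± 350 CPM in NONO deltaER and 1832 ± 222 CPM in NONO (0.15 ± 0.24). Cst12 averaged 130.5 ± 43.5 CPM in NONO deltaER and 157.1 ± 19.7 CPM in NONO (-0.23 ± 0.25), and Defb36 29.4 ± 7.59 CPM in NONO deltaER and 25.9 ± 6.28 CPM in NONO (0.22 ± 0.31). Their adjusted p-values in edgeR lay between 0.960 and 0.997, as did those of all 9 genes.

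Aard had the fold change furthest below 0, and those of the homeobox genes were also below 0. Aard averaged 708.1 ± 158 CPM in NONO deltaER and 919.6 ± 111 CPM in NONO (log2 fold change -0.35 ± 0.23). Rhox5 averaged 104 ± 45.3 CPM in NONO deltaER and 125.5 ± 28.2 CPM in NONO (-0.23 ± 0.28), and Rhox8 376.7 ± 123 CPM in NONO deltaER and 440 ± 122 CPM in NONO (-0.20 ± 0.26). TF was the lowest of the 6 libraries for Clu, Rhox5, Rhox8, Cst12 and Aard, and it also had the largest share of cells poor in the 10 genes. Without TF the fold changes of Rhox5, Rhox8 and Cst12 became 0.05, 0.04 and 0.03, and that of Aard -0.17. Without TE they moved the other way, to -0.62, -0.50, -0.41 and -0.56 for Rhox5, Rhox8, Cst12 and Aard. Unadjusted p-values without TE were 0.0211 for Rhox5, 0.0492 for Rhox8 and 0.0221 for Aard, and the adjusted p was 0.997 for each in edgeR. Of all 9379 genes tested in the class without TE, 430 were under 0.05 unadjusted. Without TC, a NONO library, those of Rhox5 and Rhox8 were -0.05 and 0.03, so that the values of these genes depended on which library was left out. The part of the spermatid RNA of TF in those values was not tested beyond the cells with little of it, where Aard was 1041 ± 260 CPM in NONO deltaER and 1327 ± 143 CPM in NONO.

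The libraries fell into 2 sets by their median mitochondrial percent, TC, TD and TE with 0.00846% to 0.0182% and TA, TB and TF with 0.0735% to 0.132%. Within the first set (TD and TE against TC) the log2 ratio of mean CPM was -0.36 for Aard, 0.54 for Wt1, 0.23 for Clu, 0.21 for Cst12, -0.25 for Rhox5 and -0.34 for Rhox8. Within the second (TF against TA and TB) it was -0.68 for Aard, 0.02 for Wt1, -0.28 for Clu, -1.07 for Cst12, -0.90 for Rhox5 and -0.59 for Rhox8. The sign of Clu, Cst12, Sox9, Ctsl and Defb36 thus differed between the sets, whereas Aard, Rhox5 and Rhox8 lay below 0 in both. Each set has a lone library on one side. With the set as a covariate, edgeR gave log2 fold changes of -0.53 ± 0.21 for Aard, -0.55 ± 0.25 for Rhox5, -0.47 ± 0.22 for Rhox8 and -0.41 ± 0.25 for Cst12, and of 0.0080 ± 0.323 for Defb36. Unadjusted p-values were then 0.0175 for Aard, 0.0328 for Rhox5 and 0.0391 for Rhox8, with edgeR adjusted p-values of 0.550, 0.621 and 0.647. Of all 9026 genes tested in the class with the covariate, 678 were under 0.05 unadjusted.

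**Figure D3:**
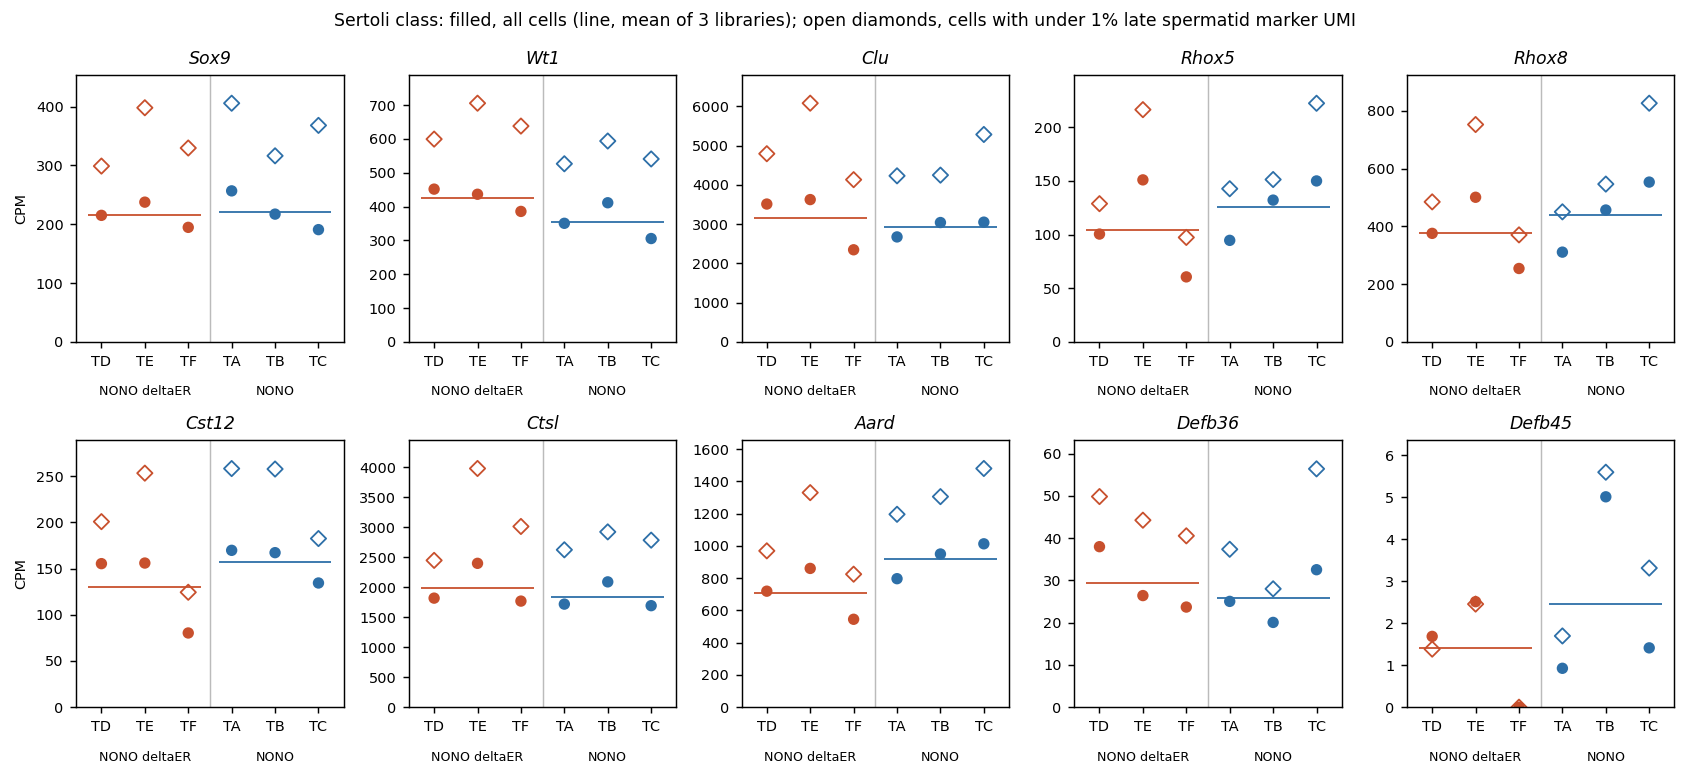
CPM of the 10 genes in the Sertoli class by library, NONO deltaER left of NONO (filled points, all cells; lines, group means; open diamonds, cells with under 1% late spermatid marker UMI). The filled points of the 2 groups overlap for every gene, and TF is the lowest library for Clu, Rhox5, Rhox8, Cst12 and Aard.

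**Figure D4:**
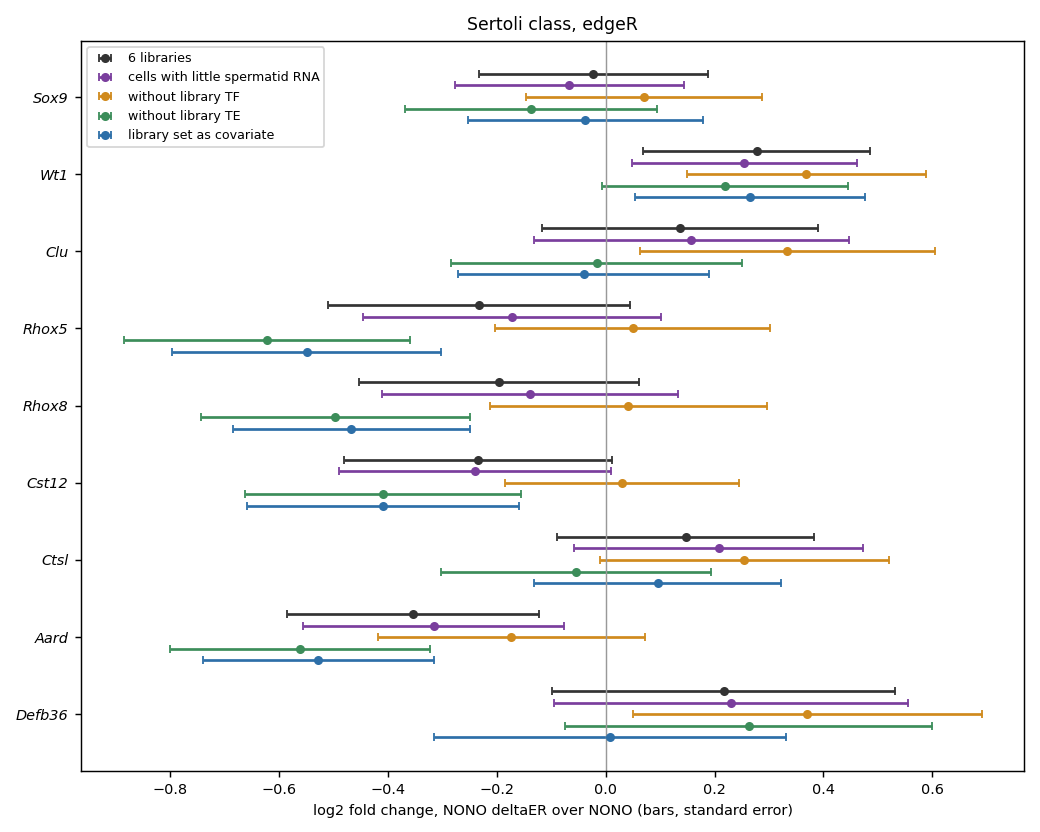
log2 fold change of NONO deltaER over NONO in the Sertoli class (edgeR, bars are standard errors) for the 9 genes tested, with all 6 libraries, with cells of little spermatid RNA, without TF, without TE and with the library set as covariate. Values lie between -0.62 and 0.37. Rhox5, Rhox8, Cst12 and Sox9 change sign without TF, and Rhox5, Rhox8, Cst12 and Aard lie further below 0 without TE and with the covariate.

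Taken over every cell group, 55 pairs of gene and class passed the filter on low counts, 9 of them in the Sertoli class, of 190 possible over the 17 classes, pooled germ cells and all cells. None passed an adjusted p of 0.05 in edgeR, 5 had an unadjusted p under 0.05, and DESeq2 called 0. These 5 were Ctsl in Macrophage, Aard in Round ST(Step 4-5) and in pooled germ cells, and Wt1 and Ctsl in all cells. The pools hold the cells of the classes, so the pairs are not separate. Among all genes tested, 58 of 1270 were under 0.05 unadjusted in Macrophage and 385 of 15647 in Step 4-5. The same held for 1527 of 20425 in pooled germ cells and 1257 of 20958 in all cells. Of all genes tested, edgeR called 0.327% in Preleptotene SC, 0.0271% in Undifferentiated SG and 0.0% in each other class. The lowest adjusted p was that of Ctsl in Myoid cells, 0.619 in edgeR, where NONO deltaER had 157.3, 252.2 and 171 CPM and NONO 77.38, 140.3 and 86.94 CPM. The groups did not overlap there, as for 13.5% of genes of at least 10 CPM in that class. Summed over all cells, Wt1 had 6.454, 4.726 and 4.114 CPM in NONO deltaER and 4.027, 3.203 and 2.812 CPM in NONO, again without overlap (log2 fold change 0.59 ± 0.19, edgeR adjusted p = 0.823), as for 11.8% of genes of at least 1 CPM. The Sertoli class made up 4.79%, 4.33% and 3.59% of cells in NONO deltaER and 3.09%, 1.74% and 4.63% in NONO. In such a sum more Sertoli cells and more Wt1 RNA per cell cannot be told apart.

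In germ cells the 10 genes together stood at 11.28, 11.26 and 10.13 CPM in NONO deltaER and 10.14, 11.78 and 9.376 CPM in NONO. That was 0.155% ± 0.0226 of the Sertoli level in NONO deltaER and 0.149% ± 0.0152 in NONO (SD, n = 3 each). Ctsl alone gave 2837 of the 5721 UMI of the set in germ cells. Without Ctsl the level was 0.104% ± 0.0234 in NONO deltaER and 0.108% ± 0.0150 in NONO. No UMI of the set was found in 91.5% of the 42595 germ cells, and the 1% of germ cells richest in them held 36.5% of the 5721 UMI. That 1% was picked by the same UMI, not scaled for depth, so a large share was built in. The log2 ratio of germ to Sertoli level was tested between genotypes with limma, which called 0 of 9659 genes (0.0%), 465 of them under 0.05 unadjusted. Among the 9 genes that could be tested, Rhox5 (0.44 ± 0.33 as NONO deltaER minus NONO) and Cst12 (0.28 ± 0.28) had the lowest adjusted p in limma, 0.949.

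A group of 6 genes stood in germ cells within 0.0786% to 0.139% of their Sertoli level. Clu was at 0.0786% of its Sertoli level, Sox9 at 0.0918%, Wt1 at 0.0956%, Aard and Cst12 at 0.110% and Rhox8 at 0.139%. Scaled to the Clu UMI of the same germ cells, Sox9 was found 1.16 times as often as its Sertoli ratio to Clu gives (exact 95% Poisson interval 0.950 to 1.40). The same ratio was 1.21 for Wt1 (1.04 to 1.39), 1.34 for Cst12 (1.07 to 1.66), 1.40 for Aard (1.27 to 1.53) and 1.68 for Rhox8 (1.49 to 1.89), so that the interval of Sox9 covered 1 and those of the other 4 lay above it. Clu is at 1 by construction. The intervals cover the counting error of the gene and not that of Clu or the spread of libraries. By library the germ level ran from 0.0666% to 0.0933% of the Sertoli level for Clu and from 0.0496% to 0.143% for Sox9. It ran from 0.0754% to 0.132% for Wt1, 0.0722% to 0.173% for Cst12, 0.0786% to 0.156% for Aard and 0.0856% to 0.203% for Rhox8.

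The genes Ctsl, Rhox5, Defb36 and Defb45 departed further from the proportion to Clu, the last of them at 4.81 times (1.31 to 12.3) on only 4 UMI. Ctsl was found at 3.53 times the number given by Clu (3.40 to 3.66), and the excess lay in early germ cells, at 28.3 times in Differentiated SG, 27.7 in Preleptotene SC, 19.7 in Undifferentiated SG and 10.3 in Lep/Zygo/ePac SC. Rhox5 was at 2.98 times (2.51 to 3.52). Its ratio was 1.05 in Round ST(Step 3) on 7 UMI, 2.06 in Step 4-5 on 30 UMI, 3.88 in Step 5-6 on 29 UMI and 8.28 in Step 6-7 on 48 UMI.

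Defb36 was the furthest out, with 320 UMI in germ cells where the Clu proportion gives 11.4, a ratio of 28.1 (25.1 to 31.3). Its level in germ cells was 2.23% of that in Sertoli cells. It stood at 0.755 CPM in IPac/eDip SC on 35 UMI, 0.708 CPM in Lep/Zygo/ePac SC on 28 UMI, 0.871 CPM in Round ST(Step 3) on 88 UMI and 0.310 CPM in Step 6-7 on 24 UMI, then 0 UMI in Step 7-8, where 3 UMI would be a level of 0.198 CPM. The 320 UMI were spread over 314 cells, at most 2 in a cell, whereas 63 germ cells held 3 or more Clu UMI, 340 in all, and up to 32 in 1 cell. Wt1 had 52 UMI in Undifferentiated SG, 7.65 times the number given by Clu.

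**Figure D5:**
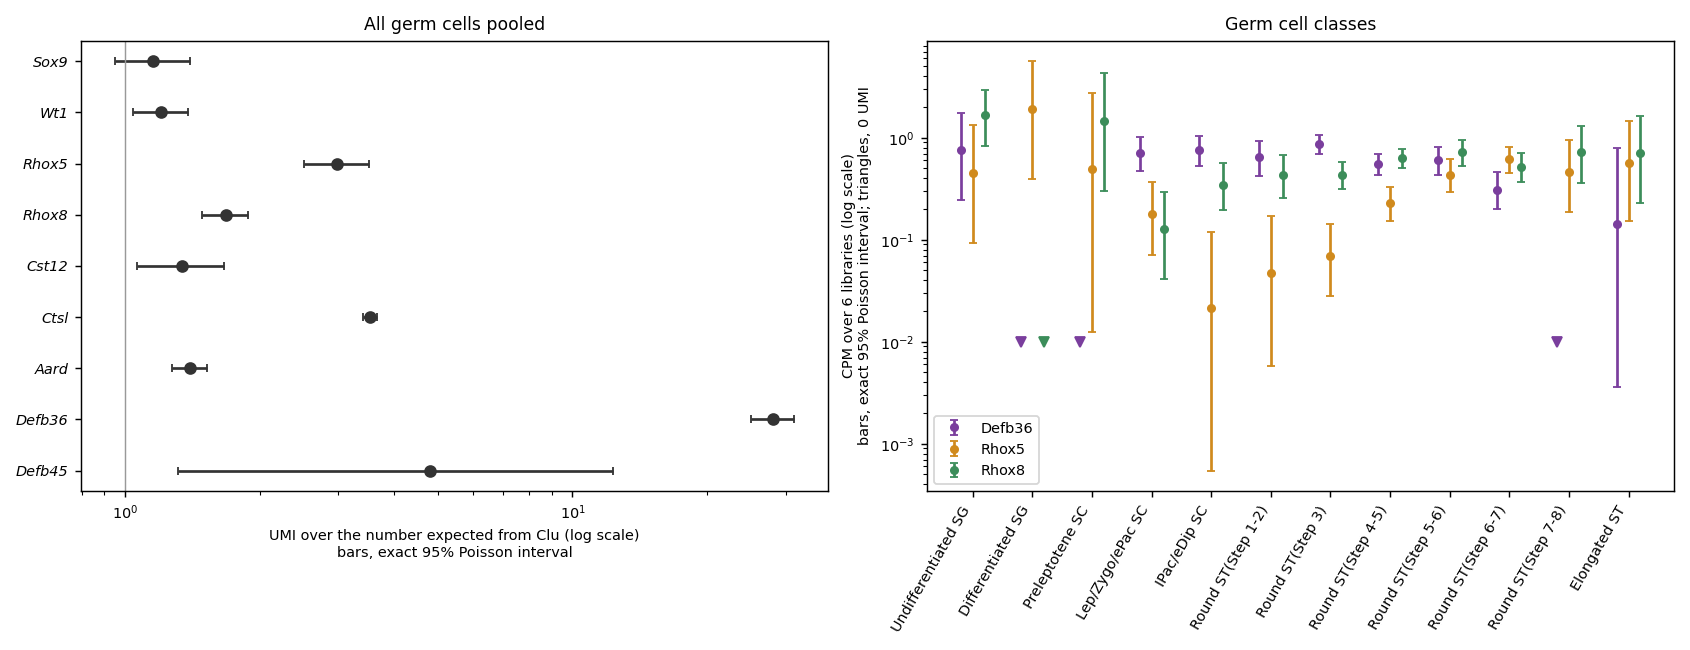
Left, UMI of each gene in all germ cells over the number expected from Clu and the Sertoli ratio (logarithmic axis, exact 95% Poisson intervals). Right, CPM of Defb36, Rhox5 and Rhox8 in the 12 germ cell classes over 6 libraries (logarithmic axis, same intervals, triangles for 0 UMI). Defb36 lies at 28.1 on the left, and on the right Rhox5 stands higher in Step 6-7 than in Step 3.

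Libraries separated by genotype in 11 of the 90 pairs of gene and germ cell class with a mean of at least 0.1 CPM (12.2%), against 9.05% of such pairs over all genes. Of the 11, 7 were higher and 4 lower in NONO deltaER, and 5 rested on fewer than 20 UMI. Only Aard in Round ST(Step 4-5) passed the filter on low counts, and it was not called. The other pairs were not tested in the main fit, and with no filter none of the 11 was called. The pairs described next were picked after their values were seen. Clu in Elongated ST had 4.98, 4.71 and 9.11 CPM (8, 6 and 8 UMI) in NONO deltaER and 0.756, 0 and 0.928 CPM (1, 0 and 1 UMI) in NONO. It did not pass the filter on low counts. With no filter edgeR gave a log2 fold change of 3.10 ± 0.83 and an unadjusted p of 0.000176, the lowest of the 10 genes in any class (adjusted p = 0.388), and 6.51% of genes had no overlap in that class. Rhox5 in Round ST(Step 6-7) had 0.796, 0.786 and 1.04 CPM in NONO deltaER and 0.400, 0.400 and 0.246 CPM in NONO. It too did not pass the filter, and with no filter edgeR gave a log2 fold change of 1.29 ± 0.47 (adjusted p = 0.944). In Round ST(Step 5-6) Rhox5 had 0.497, 0.471 and 0.950 CPM in NONO deltaER and 0.139, 0.445 and 0.275 CPM in NONO, also without overlap. In Step 6-7 groups did not overlap for 2 of the 9 genes of the set with at least 0.1 CPM there, Rhox5 and Cst12, and for 8.6% of all genes of that level. In Round ST(Step 4-5) the order of Rhox5 was the opposite, with 0.130, 0.107 and 0.178 CPM (2, 2 and 4 UMI) in NONO deltaER and 0.286, 0.262 and 0.346 CPM (8, 7 and 7 UMI) in NONO. Aard in Round ST(Step 4-5) had 0.718, 0.590 and 0.312 CPM in NONO deltaER and 1.11, 2.17 and 1.18 CPM in NONO, a log2 fold change of -1.52 ± 0.39 (edgeR adjusted p = 1.00, unadjusted p = 0.0033). In pooled germ cells Aard had 0.681, 0.676 and 0.697 CPM in NONO deltaER and 0.966, 1.48 and 0.805 CPM in NONO (edgeR adjusted p = 0.629). The other 6 pairs were Wt1 in Differentiated SG, Defb36 in Lep/Zygo/ePac SC, Cst12 in Step 6-7, Rhox8 in Step 7-8, and Aard in Preleptotene SC and in Step 7-8. Of the 9 genes of at least 0.1 CPM, 2 had no overlap in Step 4-5 and 2 in pooled germ cells, Rhox5 and Aard in both, against 7.43% and 13.1% of genes.

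Few relatives of these genes shared their place. Counted here are family members with a mean of at least 1 CPM in some class. Of 20 such Rhox genes among 30 measured, 2 were highest in Sertoli cells, Rhox5 and Rhox8, and 17 in a germ cell class, and no other reached 20 CPM in Sertoli cells. Of 13 such beta-defensin genes among 25, 2 were highest in Sertoli cells, Defb36 and Defb45, and 9 in germ cells. Defb19 had 51.5 CPM in Sertoli and 51.9 CPM in Leydig cells, and Defb33 20.6 CPM in Sertoli cells against 88.9 CPM in Round ST(Step 6-7). Of 5 such cystatins among 9, 2 were highest in Sertoli cells. Cst9 stood beside Cst12 at 231 CPM, Cst8 had 289.5 CPM against 1357 CPM in Round ST(Step 6-7), Cst13 78.0 CPM against 806 CPM in Round ST(Step 5-6), and Cst3 124.5 CPM against 662.7 CPM in Leydig cells. Of 13 such cathepsins among 15, only Ctsl was highest in Sertoli cells and 12 in other somatic classes: Ctsb had 50.4 CPM in Sertoli cells against 1522 CPM in macrophages, and Ctsd, Ctso and Ctsa 44.5, 38.4 and 22.9 CPM in Sertoli cells. No gene of these 4 families was called between genotypes in the Sertoli class, of 16 tested (edgeR).

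Other Sertoli genes showed no call either. Of 12 regulators and receptors, 11 were measured, 7 of them highest in the Sertoli class, and 10 were tested. Of these 0 were called and 10 fold changes lay above 0, with a median of 0.27. Amhr2, the receptor for anti-Müllerian hormone, averaged 515.8 ± 151 CPM in NONO deltaER and 450.3 ± 44.3 CPM in NONO, and Gata4, a transcription factor of gonad formation, 132.7 ± 13.2 CPM in NONO deltaER and 89.9 ± 19.8 CPM in NONO (log2 fold change 0.57 ± 0.23, edgeR adjusted p = 0.960). The factors Etv5, Sox8, Nr0b1, Dmrt1 and Nr5a1 lay between 59.1 and 168.5 CPM in the mean of 6 libraries. Of these, Dmrt1 was higher in Undifferentiated SG (478 CPM) and Nr5a1 in Leydig cells (83.1 CPM). Of 14 secreted factors, 7 were highest in the Sertoli class. Among the 14, 9 were tested, 0 called, 7 above 0, with a median of 0.26. Ptgds, a prostaglandin synthase, averaged 785 ± 200 CPM in NONO deltaER and 669.7 ± 30.7 CPM in NONO, but was far higher in Leydig cells. Plat, the tissue plasminogen activator, averaged 75.7 ± 4.60 CPM in NONO deltaER and 36.1 ± 12.3 CPM in NONO, a log2 fold change of 1.09 ± 0.27 that did not pass (edgeR adjusted p = 0.960). Plat was higher in Myoid cells, at 337.8 CPM against 55.9 CPM in the mean of 6 libraries. The part of myoid RNA in its level was not tested. The growth and signalling factors Kitl, Inha, Inhbb and the iron carrier Trf had means of 151.9, 89.7, 63.8 and 52.9 CPM over the 6 libraries. Kitl was higher in Leydig cells (340.5 CPM) and Trf in macrophages (729.3 CPM). Of 6 genes known to respond to androgen, 5 were tested, 0 called and 1 lay above 0, with a median of -0.18. Those below 0 included Rhox5, which is also 1 of the 10 genes of the set, and Eppin at -0.016. For all 9026 genes tested in the class the median was 0.01. Tsx averaged 412.7 ± 146 CPM in NONO deltaER and 506 ± 175 CPM in NONO. Eppin averaged 114.5 ± 52.4 CPM in NONO deltaER and 118.5 ± 24.5 CPM in NONO, and Tubb3 130.5 ± 50.4 CPM in NONO deltaER and 101 ± 20.3 CPM in NONO.

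The genes with the profile over the 17 classes most like the mean of the 10 were Gm14569 (Pearson r = 0.978), Qpct (0.957), Etnk2 (0.954), Cldn11 (0.944), Cidea (0.934) and Daam2 (0.932), of 4260 genes with at least 50 CPM in Sertoli cells. Gm14569 averaged 1429 ± 175 CPM in NONO deltaER and 1206 ± 32.4 CPM in NONO. Cldn11, a claudin of the junction between Sertoli cells, averaged 167.4 ± 38.7 CPM in NONO deltaER and 145.7 ± 18.8 CPM in NONO. None of the 6 passed the edgeR test between genotypes, with adjusted p-values of 0.960 or more. Of the 10 genes themselves, Aard was nearest to the common profile (r = 0.966) and Defb36 furthest (r = 0.771).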

How the data were processed

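Per the labels, testes were digested with enzymes and libraries made with the 10x Genomics 3′ chemistry. The authors deposited raw UMI counts (25771 genes by 46495 cells), made with Cell Ranger 2.1.1 on mm10, per the submitters' processing notes, and a deposited cell table with library, group, class and mitochondrial percent. The lowest depth of a cell was 500 UMI and the highest mitochondrial share 4.995%. UMI were summed per library and class, since cells are not replicates. The genotypes were compared in edgeR 4.0.16 (NONO deltaER over NONO, TMM, filterByExpr, robust quasi-likelihood test, Benjamini-Hochberg over all genes of a class, threshold 0.05) in R 4.3.3, with DESeq2 1.42.0 as an alternative. The ratio of germ to Sertoli level, log2((CPM + 1)/(CPM + 1)), was tested with limma 3.58.1. On simulated counts of the Sertoli class with 200 changed genes, edgeR called 9.09% of 1.5-fold changes, 52.4% of 2-fold and 98.4% of 4-fold changes. Changes of 1.5-fold or less would thus mostly be missed there, and the lack of a call does not show equal levels. No doublet caller was run; an alternative left out the 5% of cells with the most UMI. Intervals and floors (3 UMI) cover counting error only. The genes and lists were chosen with earlier results of these data known. Named were all 10 genes, other classes where a gene had at least 100 CPM or 10% of its Sertoli level, family members of at least 20 CPM, list genes of at least 50 CPM (1 of them is not reported here) and the 6 genes most like the set. Cells with under 1% late spermatid markers were an alternative added after the data were seen.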

Additional observations from a re-analysis of the deposited data

How the results depend on the processing

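None of the 10 genes was called in any class under any alternative run, and 9 stayed highest in the Sertoli class in every library under each. In the Sertoli class edgeR called 0 genes with 6 libraries, 1 with no filter on low counts, and 0 to 9 with 1 library left out; the 9 came without TF (1 higher and 8 lower in NONO deltaER). The summed level in germ cells, 0.152% of the Sertoli level over 6 libraries, was 0.106% without Ctsl. Against Sertoli cells with little spermatid RNA it was 0.0995%. Without the 1% of germ cells richest in the genes it was 0.0979%, a fall built in because those cells were picked by the same UMI. With the library set as covariate the Sertoli fold change of Clu was -0.0403, those of Rhox5, Rhox8 and Cst12 -0.549, -0.467 and -0.409 (-0.233, -0.196 and -0.235 without it), that of Aard -0.528 (-0.353) and that of Defb36 0.0080 (0.217), and without the 5% of cells with the most UMI that of Ctsl was -0.0125. With 1 library left out, log2 fold changes in Sertoli cells ran from -0.137 to 0.0958 for Sox9, -0.0166 to 0.334 for Clu, -0.622 to 0.0495 for Rhox5, -0.496 to 0.0415 for Rhox8, -0.408 to 0.0296 for Cst12, -0.0542 to 0.255 for Ctsl and -0.0431 to 0.415 for Defb36, and those of Wt1 (0.20 to 0.37) and Aard (-0.56 to -0.17) kept their sign. In pooled germ cells they ran from -0.0065 to 0.44 for Sox9 and from -0.44 to 0.0046 for Cst12. For the germ to Sertoli ratio they ran from -0.024 to 0.165 for Sox9, -0.141 to 0.392 for Rhox8, -0.032 to 0.46 for Cst12, -0.036 to 0.199 for Ctsl, -0.082 to 0.256 for Aard and -0.217 to 0.096 for Defb36. Apart from the settings just named, the cause was not tested. No paired analysis was possible because the cell table does not tie the libraries to the replicate numbers of the labels. Depth limits Defb45 (9 UMI in Sertoli cells) most.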
